A study of Mus musculus with 15 samples.

Results

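RNA of 8 genes that build and load major histocompatibility complex (MHC) class I molecules was followed in the mouse ileum, the end of the small intestine. They were H2-K1, H2-D1, H2-Q4, H2-Q5, H2-T3, Tap1, Tapbp and Erap1, found by name, and they made up 8 of the 4178 genes in the deposited table. The members were chosen by measured values of the same comparisons given here, so their levels and differences are a description, with no test. Every mouse was a C57BL/6 animal raised germ-free, that is, without any microbe. One group received 200 µl of phosphate-buffered saline (PBS), given sterile into the stomach, and stayed germ-free. The other groups received 200 µl of Ruminococcus gnavus (RG), a common anaerobe of the gut, or of Lacticaseibacillus rhamnosus GG (LGG), a probiotic strain, and so carried a single bacterium. Tissue was taken after 21 days from 5 mice per group, and each mouse gave 1 library. The labels give no sex, cage or batch, and the tissue was whole ileum, a mixture of epithelium, immune cells and muscle.

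Class I molecules carry short peptides from inside the cell to its surface, where CD8 T cells and natural killer cells read them. A heavy chain folds with beta-2-microglobulin in the endoplasmic reticulum, the TAP transporter brings in peptides, tapasin holds the empty molecule beside TAP, and the ERAP1 aminopeptidase trims the peptides to fit. Interferons raise most of these genes together. In the small intestine of mice the epithelium itself carries class I molecules, among them the thymus leukaemia antigen encoded by H2-T3, which binds CD8 alpha homodimers on intraepithelial lymphocytes.

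The values were in TPM, a transcript level scaled for transcript length and for the total of a library. The genes in the table held 48.0 to 66.1% of all TPM of a library, and the depth is unknown. This share differed by group, at 58.58 to 65.52% with PBS, 58.68 to 66.06% with RG and 48.05 to 52.51% with LGG. All LGG libraries thus lay below all others, and the part of this in the LGG differences was not tested. Of the 4178 genes, 3530 had a TPM of at least 1 in 5 or more libraries and were fitted, and all 8 members were among them. All 9 listed epithelial markers were above 0 in every library, with Krt8 and Epcam the highest. Their summed TPM was 4489 ± 994 (SD, n = 5) with PBS, 6893 ± 1508 with RG and 16526 ± 1745 with LGG. In the exact permutation test, two-sided, LGG against PBS gave p = 0.00794, the smallest p that 5 against 5 mice allow, and 0.0833 after adjustment over 21 tests. RG against PBS gave an exact p of 0.0238, adjusted 0.167. RG mouse 2 stood apart from the other RG mice. Its 6 listed general leukocyte markers summed to 840 TPM, against 25.8 to 45.7 in the other RG mice, and its 16 listed T and NK cell markers to 609.8 TPM, against 31.8 to 61.1. In bulk tissue, a different number of cells of a type and a different amount of RNA per cell cannot be told apart.

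Of the 8 genes, 7 lie in or beside the MHC on chromosome 17 (GRCm38, GENCODE release M21) and Erap1 lies on chromosome 13. The classical heavy chains are H2-K1 (33996017 to 34000347, minus strand) and H2-D1 (35262730 to 35267499, plus strand). The nonclassical heavy chains H2-Q4 (35379617 to 35385290, plus strand) and H2-Q5 (35394126 to 35397800, plus strand) belong to the Qa region, and H2-T3 (36185572 to 36190287, minus strand) to the T region. H2-Q5 is annotated as a polymorphic pseudogene. Tapbp, which encodes tapasin, spans 33915899 to 33929292 on the plus strand, and Tap1, a subunit of the TAP transporter, spans 34187553 to 34197225 on the plus strand. Erap1 spans 74639568 to 74693201 of chromosome 13 on the plus strand.

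The promoters of H2-K1, H2-D1 and H2-Q4 are shown because these genes share much of this stretch. That of H2-T3 is shown for contrast, since its window did not line up with theirs in the alignment below. Each window runs from 250 bases before to 50 bases after the RefSeq start (GRCm38.p6), 5′ to 3′ on the gene's strand. The windows are chr17:34000298-34000597 (minus strand) for H2-K1, chr17:35262844-35263143 (plus strand) for H2-D1, chr17:35379367-35379666 (plus strand) for H2-Q4 and chr17:36190102-36190401 (minus strand) for H2-T3. Capitals mark runs of at least 10 bases that all 4 windows hold and, between those runs in H2-K1, H2-D1 and H2-Q4, a match to a kappa-B-type motif.
H2-K1: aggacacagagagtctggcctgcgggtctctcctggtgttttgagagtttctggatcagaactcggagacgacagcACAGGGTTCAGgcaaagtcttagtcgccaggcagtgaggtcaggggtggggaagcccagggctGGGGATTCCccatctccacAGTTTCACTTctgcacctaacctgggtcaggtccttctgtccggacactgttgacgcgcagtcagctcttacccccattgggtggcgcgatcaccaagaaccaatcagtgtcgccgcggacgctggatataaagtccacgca
H2-D1: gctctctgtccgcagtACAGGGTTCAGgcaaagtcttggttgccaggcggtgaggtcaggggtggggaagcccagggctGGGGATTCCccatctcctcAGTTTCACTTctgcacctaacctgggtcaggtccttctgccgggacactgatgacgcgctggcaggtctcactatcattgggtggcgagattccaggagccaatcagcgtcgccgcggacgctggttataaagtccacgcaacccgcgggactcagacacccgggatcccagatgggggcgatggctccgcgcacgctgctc
H2-Q4: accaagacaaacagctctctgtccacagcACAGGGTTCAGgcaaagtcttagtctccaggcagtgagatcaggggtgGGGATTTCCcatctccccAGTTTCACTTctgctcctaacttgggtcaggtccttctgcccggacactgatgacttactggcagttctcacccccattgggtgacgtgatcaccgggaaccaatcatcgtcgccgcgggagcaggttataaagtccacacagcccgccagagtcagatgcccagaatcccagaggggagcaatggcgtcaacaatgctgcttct
H2-T3: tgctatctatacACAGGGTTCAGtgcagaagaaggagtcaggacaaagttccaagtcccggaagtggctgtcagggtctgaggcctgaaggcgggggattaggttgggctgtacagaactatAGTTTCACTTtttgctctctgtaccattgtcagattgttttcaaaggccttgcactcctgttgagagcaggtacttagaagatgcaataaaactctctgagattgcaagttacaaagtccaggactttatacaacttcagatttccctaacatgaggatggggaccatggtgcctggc

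Aligned end to end with free end gaps, the H2-K1 and H2-D1 windows were identical at 87.9% of 240 alignment columns. The H2-Q4 window matched that of H2-K1 at 77.9% of 253 columns and that of H2-D1 at 78.4% of 301 columns. The H2-T3 window overlapped those of H2-K1, H2-D1 and H2-Q4 over only 19, 5 and 8 columns in this alignment. Free end gaps let unlike windows slide apart, so these columns do not measure how much the windows share. The runs named next lie in the same order in all 4 windows. The runs shared by all 4 windows, chosen after the sequences were seen, were ACAGGGTTCAG and AGTTTCACTT, which 0.04% and 0.14% of 32544 RefSeq promoter windows of the same length hold on either strand. The kappa-B-type motif GGGNNTTCC, as in an NF-kappa-B site, occurred in 3 of the 7 members with a window and in 5.8% of all windows. The motif GAAANNGAA, of the type bound by interferon regulatory factors, occurred in 1 of 7, Erap1, and in 8.5% of all windows. The run AGTTTCACTT of all 4 windows does not match these letters. Whether that run is such a site in another spelling was not tested. The count of 1 thus does not show that the other windows lack such a site. The X2-type motif TGACGC occurred in 3 of 7 and in 7.4% of all windows, and the Y-type motif CCAAT in 5 of 7 and in 37.4%. The X2-type matches of H2-K1 and H2-D1 lay on the gene's strand at offsets of -41 and -101 bases from the start. Within the windows they began at bases 210 and 150, and the run AGTTTCACTT at bases 159 and 99. The spacing to that run was thus the same, and the unlike offsets come from the annotated starts. H2-K1 had 2 RefSeq entries, of which the first was used. The X2-type match of H2-Q4 lay on the opposite strand at an offset of 30, after the start, so it is not at the same place. Both strands were searched, and the letters of the motifs were settled after the sequences were seen. Matches of different motifs did not overlap in these windows, and a match shows letters, not binding.

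H2-K1 and H2-D1, the classical heavy chains, had the highest levels of the 8 genes in every group. With PBS, H2-K1 was at 478, 605, 328, 430 and 483 TPM in mice 1 to 5. With RG it was at 879, 1675, 941, 462 and 493 TPM, and with LGG at 1588, 1679, 2142, 1971 and 1707 TPM. All LGG mice lay above all PBS mice, while RG mice 4 and 5 lay within the PBS range and RG mouse 2 within the LGG range. The mean with LGG was 3.91 times that with PBS, a log2 difference of 1.98 ± 0.28 (SE, n = 5 per group), and the mean with RG was 1.92 times that with PBS, a log2 difference of 0.80 ± 0.28.

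H2-D1 was at 355, 430, 243, 375 and 356 TPM with PBS in mice 1 to 5. It was at 562, 1281, 679, 316 and 326 TPM with RG, and at 1032, 1047, 1327, 1189 and 1078 TPM with LGG. The mice fell as for H2-K1, with RG mice 4 and 5 among the PBS mice. The log2 difference from PBS was 1.70 ± 0.30 with LGG and 0.67 ± 0.30 with RG. The TPM of H2-D1 over that of H2-K1 was 0.71 to 0.872 with PBS, 0.639 to 0.765 with RG and 0.603 to 0.650 with LGG, so the LGG mice all lay below the PBS mice in this ratio. Over the 9 listed heavy chain genes, summed TPM was 1148 ± 233 with PBS, 2129 ± 1138 with RG and 3929 ± 374 with LGG. H2-K1 made up 40.4 ± 0.9% of that sum with PBS, 41.5 ± 1.0% with RG and 46.2 ± 3.0% with LGG.

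**Figure D1:**
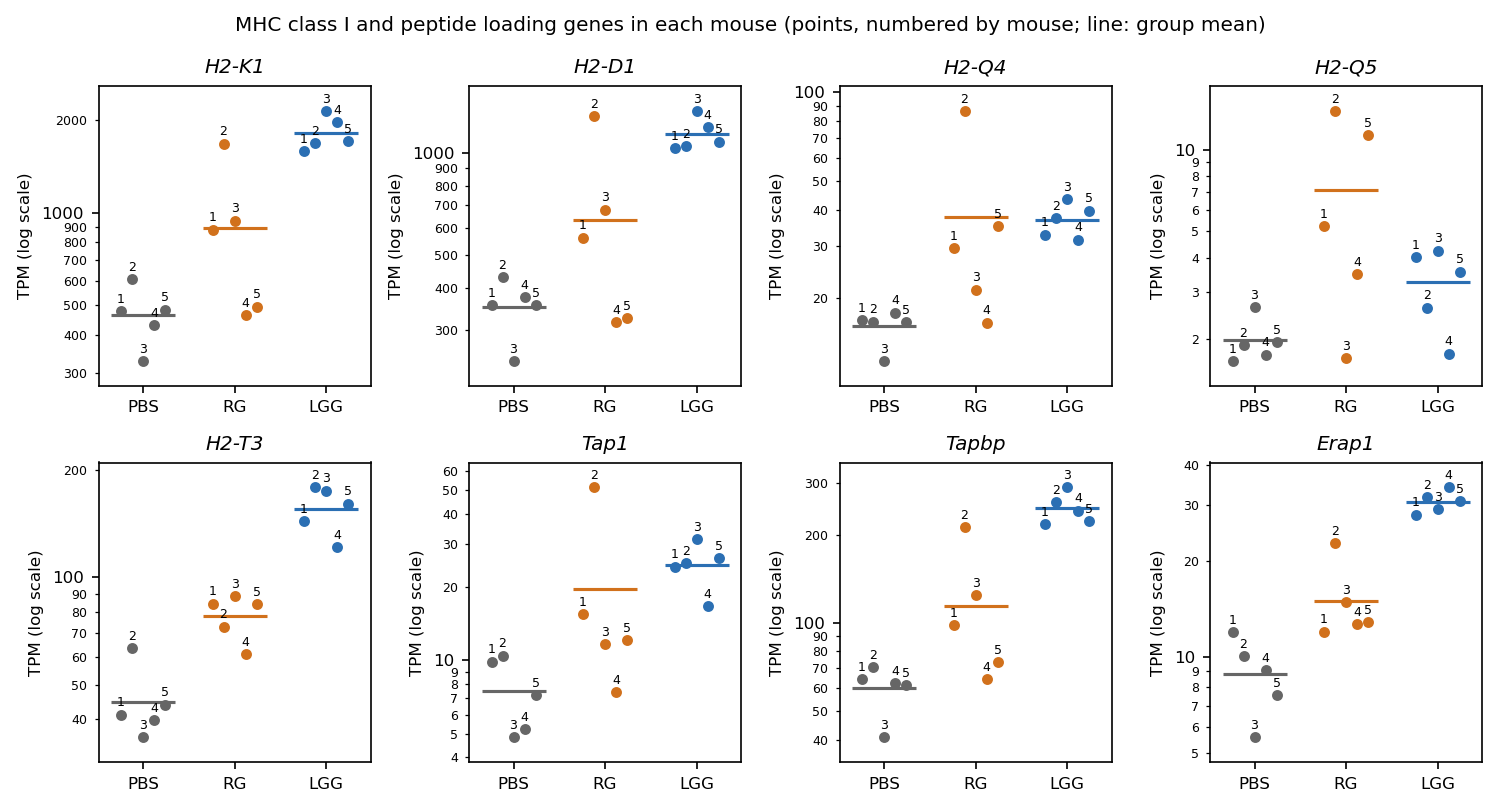
TPM (log scale) of each of the 8 genes in each mouse, numbered by mouse, with a line at the group mean. For H2-K1 the LGG mice lie between 1588 and 2142 TPM, above all PBS mice, and RG mice 4 and 5 lie within the PBS range at 462 and 493 TPM.

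H2-T3, which encodes the thymus leukaemia antigen, was the member in which RG mouse 2 did not stand high. Its levels were 41.2, 63.3, 35.6, 39.8 and 44.0 TPM with PBS in mice 1 to 5, 84.3, 72.8, 88.4, 61.0 and 84.2 TPM with RG, and 143.5, 178.3, 174.6, 121.5 and 160.5 TPM with LGG. RG mice overlapped the PBS mice only through RG mouse 4, which lay below PBS mouse 2, and all LGG mice lay above all RG mice. The log2 difference from PBS was 0.81 ± 0.17 with RG and 1.79 ± 0.17 with LGG. RG mouse 2 was at 0.916 times the mean of the other RG mice.

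H2-Q4, a nonclassical heavy chain of the Qa region, was at 16.9, 16.7, 12.3, 17.9 and 16.6 TPM with PBS in mice 1 to 5. With RG it was at 29.6, 86.4, 21.4, 16.5 and 35.2 TPM, and with LGG at 32.9, 37.4, 43.3, 31.7 and 39.7 TPM. The LGG mice lay above all PBS mice, and RG mice ranged from the PBS level to above every LGG mouse. The log2 difference from PBS was 0.95 ± 0.31 with RG and 1.15 ± 0.31 with LGG, so the RG and LGG groups differed by -0.20 ± 0.31, which turned to 0.46 under upper-quartile scaling.

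H2-Q5 had the lowest level of the 8 genes in each group mean. It was at 1.66, 1.91, 2.62, 1.76 and 1.95 TPM with PBS in mice 1 to 5, 5.22, 13.9, 1.70, 3.47 and 11.3 TPM with RG, and 4.02, 2.62, 4.25, 1.77 and 3.55 TPM with LGG. RG mice 2 and 5 stood above all other mice, RG mouse 3 lay within the PBS range, and LGG mice overlapped the PBS mice. Its log2 difference from PBS was 1.18 ± 0.37 with RG and 0.48 ± 0.37 with LGG, the latter turning to -0.21 under upper-quartile scaling. H2-Q5 was the only member with a higher mean in RG than in LGG by more than the SE, at 0.70 ± 0.37. Among the exon sequences of H2-Q5, 57.8% of 31-base words also occur in other genes, 43.2% in H2-Q7, so its reads and those of its neighbours may have been split by the counting. The share was 38.4% for H2-Q4, 26.7% for H2-D1, 22.8% for H2-K1 and 4.1% for H2-T3. With words of 75 bases the shares were lower, at 21.2% for H2-Q5 (16.4% with H2-Q7), 7.0% for H2-Q4, 5.4% for H2-D1, 3.1% for H2-K1 and 0.0% for H2-T3. The read length is not given in the sources used here.

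Of the genes that supply and load peptides, Tap1 was at 9.90, 10.4, 4.83, 5.24 and 7.21 TPM with PBS in mice 1 to 5. With RG it was at 15.5, 51.2, 11.7, 7.40 and 12.1 TPM, and with LGG at 24.2, 25.0, 31.4, 16.7 and 26.3 TPM. RG mouse 2 was the highest of all mice, at 4.39 times the mean of the other RG mice, the largest such ratio among the 8 genes. The log2 difference from PBS was 1.00 ± 0.38 with RG and 1.62 ± 0.38 with LGG. The ratio of Tap1 to its partner subunit Tap2 was 1.14 ± 0.26 with PBS, 1.27 ± 0.18 with RG and 1.03 ± 0.18 with LGG, and the groups overlapped.

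Tapbp was at 64.4, 70.7, 40.7, 62.5 and 61.4 TPM with PBS in mice 1 to 5. It was at 98.6, 212.3, 124.5, 64.2 and 73.7 TPM with RG, and at 217.1, 258.8, 290.1, 242.1 and 222.9 TPM with LGG. Every LGG mouse lay above every RG mouse, though RG mouse 2 came close, and RG mouse 4 lay within the PBS range. Its log2 difference from PBS, 2.04 ± 0.25 with LGG, was the largest of the 8 genes, and it was 0.81 ± 0.25 with RG. Per unit of H2-K1, Tapbp was at 13.0 ± 1.1% with PBS, 13.2 ± 1.4% with RG and 13.6 ± 1.2% with LGG.

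Erap1 was at 12.0, 10.04, 5.58, 9.05 and 7.55 TPM with PBS in mice 1 to 5, 12.0, 22.7, 14.8, 12.6 and 12.8 TPM with RG, and 27.9, 31.6, 29.1, 33.9 and 30.7 TPM with LGG. The 3 groups did not overlap, but RG mouse 1 at 11.97 TPM lay only just above PBS mouse 1 at 11.95 TPM. The log2 difference from PBS was 0.70 ± 0.19 with RG and 1.72 ± 0.19 with LGG.

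In the order of mean levels with PBS, H2-K1 (465 ± 100 TPM) came before H2-D1 (352 ± 68), Tapbp (59.9 ± 11.3), H2-T3 (44.8 ± 10.8), H2-Q4 (16.1 ± 2.2), Erap1 (8.83 ± 2.42), Tap1 (7.53 ± 2.58) and H2-Q5 (1.98 ± 0.38). The ranges of H2-K1 and H2-D1 overlapped, as did those of Tapbp and H2-T3 and those of Erap1 and Tap1, and the other neighbours in the order did not overlap. With LGG the order of H2-K1, H2-D1, Tapbp and H2-T3 was the same, and all neighbours among these 4 were then apart.

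With LGG, 7 of the 8 genes, all but H2-Q5, were higher than with PBS without overlap of the groups. That held for 53.0% of the 3530 genes fitted. With RG against PBS, Erap1 alone of the 8 was higher without overlap, against 13.0% of all genes. With RG against LGG, H2-T3, Tapbp and Erap1 were lower without overlap, against 36.4% of all genes. The contrasts share their groups, and the same contrasts chose the members, so nothing is read from these counts. The median log2 difference of the 8 genes was 1.71 with LGG and 0.81 with RG against PBS, where the median of all genes fitted was 1.17 and 0.38. For RG against LGG it was -1.0, where the median of all genes was -0.72.

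**Figure D2:**
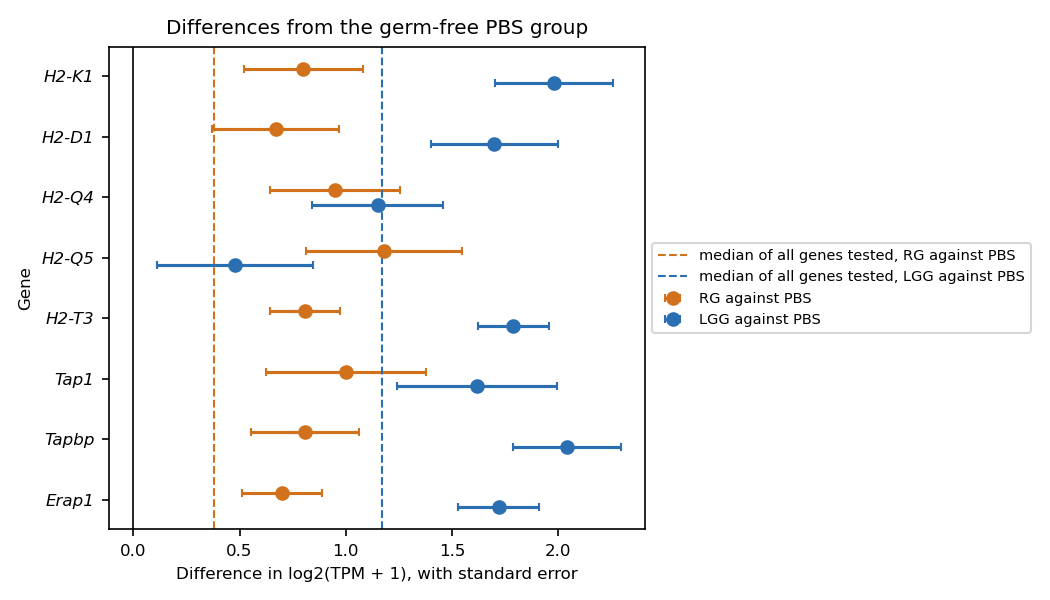
Difference from the PBS group in log2(TPM + 1), with its standard error, for each of the 8 genes with RG and with LGG. Dashed lines mark the median of all genes fitted, 0.38 with RG and 1.17 with LGG, and H2-Q5 is the only gene whose RG value lies above its LGG value.

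The median of all genes depends on the scale. With a trend over exon length removed in each library it was 0.05 with RG and 0.26 with LGG against PBS. That step also takes out a shift common to all genes of a library, so the part of length was not told apart. Under median-of-ratios scaling between libraries the median of all genes was 0.07 with RG and 0.40 with LGG against PBS, and under upper-quartile scaling 0.12 and 0.30. Relative to the median of all genes, the median of the 8 genes was 0.43 higher with RG as deposited, 0.40 under median-of-ratios scaling and 0.41 under upper-quartile scaling. With LGG it was 0.54, 0.48 and 0.47 higher. Each of these scalings divides all genes of a library by a single factor, which moves the members and the median of all genes almost alike. These distances were thus bound to stay close, and their likeness adds no support. Tapbp and H2-K1 stood 0.86 and 0.81 above the median of all genes with LGG, H2-Q4 lay 0.02 below it (a value of -0.02) and H2-Q5 at -0.69. With RG the order differed, with H2-Q5 at 0.81 and Tap1 at 0.63 above the median of all genes and H2-D1 at 0.29.

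Because epithelial markers differed between the groups in the same direction, each gene was also set against Epcam, an adhesion molecule of epithelial cells, in the same library. Epcam was chosen as the denominator after its values were seen. Its level was 1027 ± 263 TPM with PBS, 1484 ± 434 with RG and 3231 ± 272 with LGG. As a share of Epcam, H2-K1 was at 42.1 to 53.0% with PBS and 48.4 to 65.8% with LGG, and H2-D1 at 30.1 to 46.3% and 31.4 to 39.7%. For 7 of the 8 genes the LGG and PBS mice overlapped on this scale. H2-Q5 was the exception, at 0.133 to 0.336% of Epcam with PBS and 0.0590 to 0.122% with LGG, so that all LGG mice lay below all PBS mice. Set against the sum of all 9 epithelial markers, H2-Q4 was also lower with LGG without overlap, at 0.163 to 0.271% against 0.298 to 0.459%. The share of all genes fitted that overlap on these scales was not computed, so nothing is read from the count of 7. The part of the epithelial share in the group differences was not tested.

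In RG mouse 2 alone, H2-K1 reached 103% of Epcam, where the other RG mice reached 39.9 to 52.6%. The ratio of RG mouse 2 to the mean of the other RG mice was 4.39 for Tap1, 3.36 for H2-Q4, 2.72 for H2-D1, 2.56 for H2-Q5, 2.42 for H2-K1, 2.35 for Tapbp, 1.74 for Erap1 and 0.916 for H2-T3. In the same library H2-Q7, which encodes the Qa-2 antigen, was at 174 TPM against 9.37 to 17.4 in the other RG mice. Cd74, the invariant chain of MHC class II, was at 2301 TPM against 126 to 373. The T cell receptor component Cd3d was at 45.5 TPM and the CD8 subunit Cd8b1 at 34.2 TPM, against at most 4.19 and 0.638 TPM in the other RG mice. The part of these markers in the levels of RG mouse 2 was not tested. Without RG mouse 2, the RG mean over the PBS mean was 1.49 for H2-K1, 1.34 for H2-D1, 1.60 for H2-Q4, 2.74 for H2-Q5, 1.78 for H2-T3, 1.55 for Tap1, 1.51 for Tapbp and 1.48 for Erap1. The 4 remaining RG mice had a higher mean than PBS for each of the 8 genes, which were chosen by these contrasts. Without RG mouse 2 the median log2 difference from PBS was 0.57 for the 8 genes and 0.27 for all genes fitted.

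Leukocyte markers also varied among the LGG mice. The leukocyte sum was 109, 121 and 158 TPM in LGG mice 1 to 3, and 29.3 and 35.3 TPM in LGG mice 4 and 5, within the PBS range of 19.7 to 59.5. In LGG mice 4 and 5 H2-K1 was at 1971 and 1707 TPM, above every PBS mouse. LGG mouse 4 had the lowest H2-T3, Tap1, H2-Q4 and H2-Q5 of its group, with the highest sum of epithelial markers, 19387 TPM, and the highest Erap1. Over the groups, the T and NK sum was 34.2 ± 10.9 TPM with PBS and 63.6 ± 25.4 with LGG (exact permutation p = 0.0714, adjusted 0.208). The chemokine Ccl5, among its highest genes, was at 4.30 to 16.9 TPM with PBS and 10.058 to 37.3 TPM with LGG. Cd3d was not higher with LGG, at 1.51 to 6.64 TPM with PBS and 1.32 to 5.33 TPM with LGG. Thy1 and the CD8 subunit Cd8b1 were higher with LGG without overlap, and the CD8 subunit Cd8a with overlap. The leukocyte sum was 34.0 ± 17.5 TPM with PBS and 90.3 ± 56.0 with LGG (exact permutation p = 0.0952, adjusted 0.222). The myeloid and the B and plasma cell sums had lower means with LGG. They were 62.2 ± 10.4 TPM with PBS and 49.0 ± 17.4 with LGG for the former (exact permutation p = 0.206, adjusted 0.394), and 114 ± 99.0 and 66.5 ± 42.3 for the latter (exact permutation p = 0.437, adjusted 0.573). The part of leukocyte RNA in the LGG levels was not tested.

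**Figure D3:**
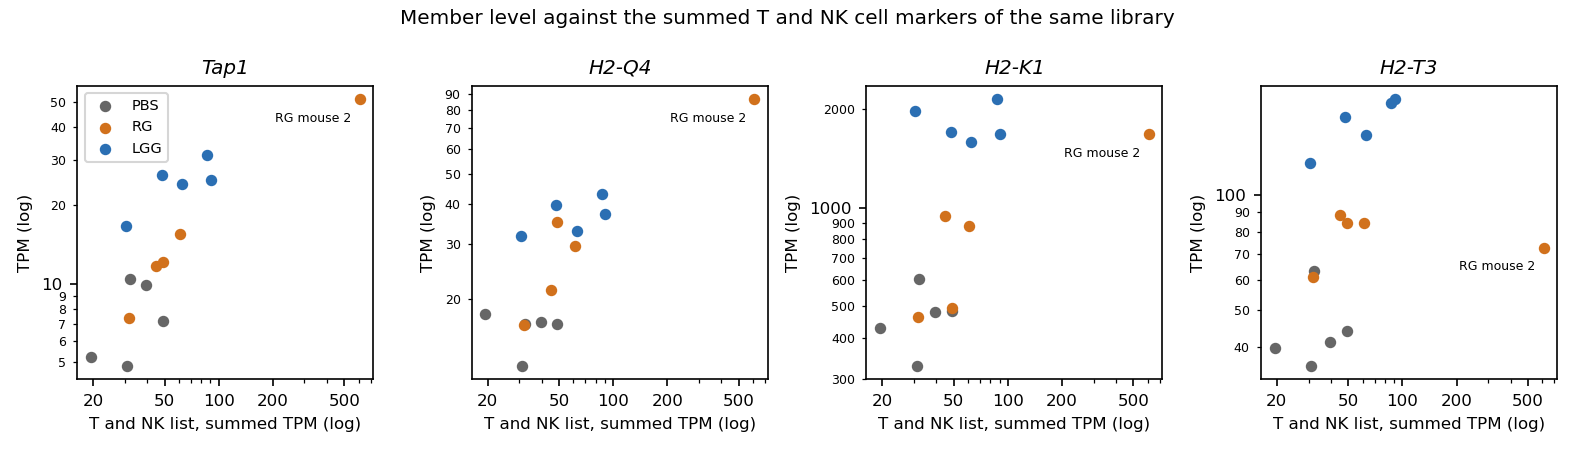
TPM of Tap1, H2-Q4, H2-K1 and H2-T3 (log scale) against the summed TPM of the 16 listed T and NK cell markers of the same library (log scale), 1 point per mouse. RG mouse 2, at a sum of 609.8 TPM, has the highest Tap1 and H2-Q4 but an H2-T3 of 72.8 TPM, within the RG range.

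Among the mice of a group, most of the 8 genes moved together. With each value taken as log2(TPM + 1) less its group mean, the Pearson correlation with the mean of the other 7 genes over 15 libraries was 0.955 for Tap1, 0.908 for H2-Q4, 0.884 for Tapbp, 0.843 for H2-K1, 0.841 for H2-D1, 0.685 for Erap1, 0.382 for H2-Q5 and 0.290 for H2-T3. Without RG mouse 2 it was 0.637 for H2-T3 and -0.025 for H2-Q5, and 0.442 to 0.891 for the others. These correlations describe libraries that share the TPM scaling and carry no test. The order of H2-Q5 among the RG mice was 2, 5, 1, 4 and 3 from high to low. Nlrc5, the transactivator of class I genes, fell in the same order at 4.27, 2.00, 0.964, 0.598 and 0.344 TPM, an observation made after the values were seen. The general leukocyte marker Ptprc, at 65.1, 10.545, 4.49, 4.02 and 3.24 TPM, and Ciita, the transactivator of class II genes, at 17.3, 3.44, 1.58, 0.999 and 0.696 TPM, fell in that order too. Nlrc5 was too low to be fitted, at 0.368 to 0.503 TPM with PBS and 0.399 to 0.741 with LGG.

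The 8 genes outside the members that followed their mean most closely were searched for by the same correlation among 2491 genes with a mean of at least 10 TPM. They were Tap2 (0.965), Cyb561a3 (0.962), Irf8 (0.948), Ap1m1 (0.929), Ptpn6 (0.927), Acp2 (0.926), Ly6e (0.921) and H2-Q7 (0.908), where the median of all candidates was 0.338. Tap2 is the other TAP subunit, Irf8 is an interferon regulatory factor, Ptpn6 is a phosphatase and Ly6e is an interferon-induced surface protein. Without RG mouse 2 their correlations were 0.747 to 0.910. Tap2, Cyb561a3, Irf8 and Acp2 were then among the 8 highest, and Fam3c, Snx9, Rhof and Ppp1r15b took the places of Ap1m1, Ptpn6, Ly6e and H2-Q7.

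**Figure D4:**
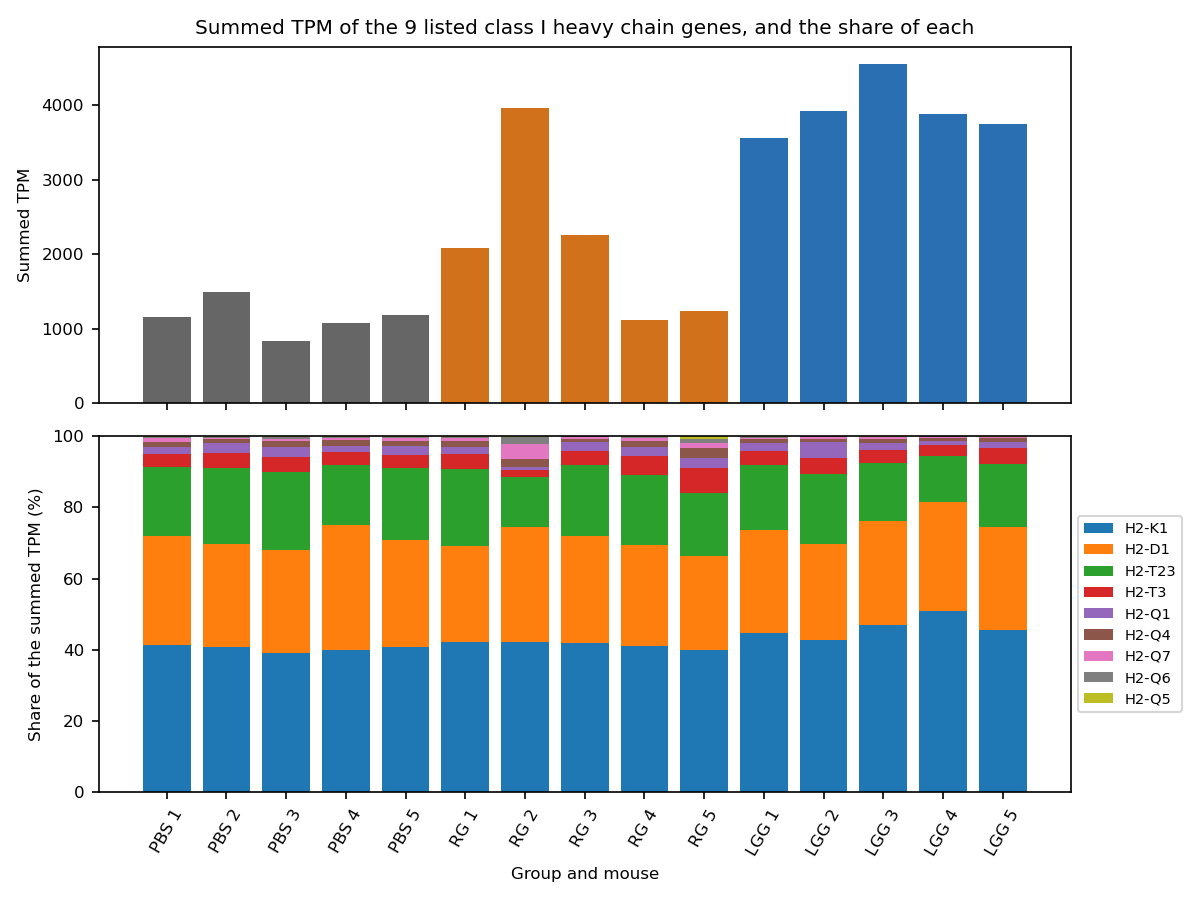
Summed TPM of the 9 listed class I heavy chain genes in each mouse (bars from 0), and the percent of that sum taken by each gene. H2-K1 and H2-D1 take most of the sum in every mouse, and the share of H2-K1 is 39.1 to 41.4% with PBS and 42.9 to 50.8% with LGG.

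Other genes of the pathway were followed in 4 lists of 72 genes picked by role, of which 24 were in the table and 23 were fitted. Most of the pathway genes picked were thus absent from the table, and the counts cover only a part of the pathway. B2m and the immunoproteasome subunits Psmb8, Psmb9 and Psmb10 were not analysed here. With LGG, 19 of the 23 rose and 2 fell against PBS (limma, adjusted p under 0.05), where 54.7% of all genes rose and 16.5% fell. With RG, 12 rose and 0 fell against PBS (limma; 19 and 1 at an unadjusted p under 0.05), where 22.8% of all genes rose and 4.08% fell. With RG against LGG, 2 were higher and 18 lower, where 8.19% of all genes were higher and 53.5% lower. The median log2 difference of the 23 was 1.46 with LGG and 0.65 with RG against PBS, and -0.85 for RG against LGG.

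Of the 9 listed genes of assembly and loading, 7 rose and 2 fell with LGG, where 54.7% of all genes rose and 16.5% fell. The chaperones, the disulfide isomerase and the Sec61 subunits in this list are not particular to class I. The counts are thus not a measure of class I loading alone. Tap2 went from 6.55 ± 1.40 to 23.9 ± 2.7 TPM (log2 difference 1.74 ± 0.30, limma adjusted p = 4.65e-05). The chaperone calreticulin, Calr, rose by 1.85 ± 0.27 (adjusted p = 8.08e-06), and Hspa5, the BiP chaperone, by 1.79 ± 0.25 (adjusted p = 5.42e-06). Tapbpl, a relative of tapasin, rose by 1.46, calnexin (Canx) by 1.54, and the disulfide isomerase Pdia3 by 1.49. Subunits of the Sec61 channel split, with Sec61a1 up by 1.80 ± 0.24, Sec61b at -0.65 ± 0.13 (adjusted p = 0.000196) and Sec61g at -1.56 ± 0.29 (adjusted p = 0.000132). With RG, 6 of the 9 rose and 0 fell, where 22.8% of all genes rose and 4.08% fell. Among those that rose were Hspa5, by 0.83 ± 0.25 (limma adjusted p = 0.0317), and Tap2, by 0.84 ± 0.30 (limma adjusted p = 0.0477).

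Of the 13 genes picked for peptide supply, 3 were in the table, and all 3 rose with LGG, as did 54.7% of all genes. They were the aminopeptidases Lap3, by 2.14 ± 0.25 (limma adjusted p = 1.06e-06), and Npepps, by 1.40, and the proteasome activator subunit Psme3, by 1.29. With RG, Lap3 rose by 0.96 ± 0.25 (adjusted p = 0.0247) and Npepps by 0.50, and Psme3 did not pass. Of the 7 fitted control genes, all rose with LGG and 4 rose with RG, where 54.7% and 22.8% of all genes rose. Irf1, an interferon regulatory factor that acts on class I genes, rose by 1.5 ± 0.21 with LGG (adjusted p = 6.31e-06) and by 0.84 ± 0.21 with RG (adjusted p = 0.0247). Irf8 rose by 1.45 with LGG and 1.00 with RG, the interferon receptor subunit Ifnar1 by 1.29 and 0.54, and the kinase Jak2 by 1.34 and 0.46. Irf2, Nfkb1 and Jak1 passed with LGG (1.41, 1.29 and 1.47) and not with RG.

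Among the other heavy chains, H2-T23, which encodes Qa-1, rose by 1.55 ± 0.25 with LGG (limma adjusted p = 2.50e-05), and H2-Q1 by 1.61 ± 0.31 (adjusted p = 0.000157). H2-Q6 and H2-Q7 did not pass with LGG, at 0.95 ± 0.54 and 0.79 ± 0.57. With RG, 0 of the 4 passed by limma (3 at an unadjusted p under 0.05), with adjusted p of 0.0580 for H2-T23 to 0.152 for H2-Q1. Of 4 listed MHC class II genes, Cd74, Ciita, H2-DMa and H2-Oa, 0 passed with RG by limma and 0 had an unadjusted p under 0.05, with log2 differences of 0.90 to 1.21. With LGG H2-DMa alone passed, at 1.28 ± 0.53 (adjusted p = 0.0414).

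**Figure D5:**
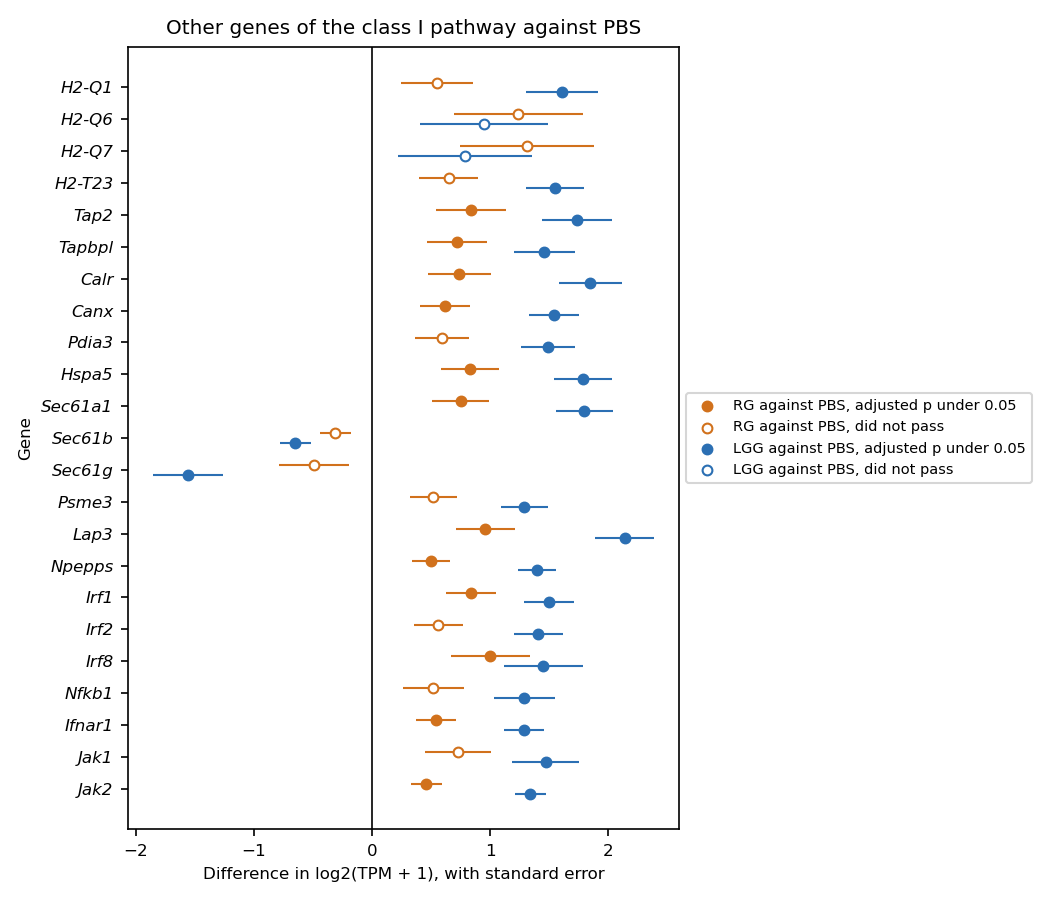
Difference from PBS in log2(TPM + 1), with its standard error, for the 23 fitted pathway genes outside the members. Filled points passed at an adjusted p under 0.05, and Sec61b and Sec61g are the genes that fell with LGG.

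The calls of RG against PBS depended on single mice and on the scale. Without PBS mouse 3, PBS mouse 5 or RG mouse 2 the count of pathway genes called was 0 by limma, with 15, 20 and 14 at an unadjusted p under 0.05. Of all genes fitted, 1.13%, 3.51% and 4.25% were then called, against 26.9% with every mouse, so calls were lost across all genes. The pathway count was 1 without RG mouse 3 (5.01% of all genes called) and 5 without PBS mouse 4 (17.7%). It was 7 without PBS mouse 1 (12.4%) or without LGG mouse 1, 3 or 5 (19.2 to 19.3%). Without RG mouse 4 it was 19 (45.2%), of which 18 were higher and 1 lower. Under median-of-ratios scaling 0 were higher and 1 was lower, and under upper-quartile scaling 1 was higher and 1 lower. Over all genes, 84.8% of the calls with RG were higher as deposited, 6.86% under median-of-ratios scaling and 19.7% under upper-quartile scaling. For LGG against PBS, 76.8% of the calls were higher as deposited and 55.4% and 51.4% under these scalings, and 18 or 16 pathway genes were higher and 2 lower. For RG against LGG, 13.3% of the calls were higher as deposited and 50.7% and 69.2% under these scalings, with 5 and 0 pathway genes lower.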

How the data were processed

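RNA sequencing libraries of whole ileum from 15 germ-free mice, 5 each given PBS, RG or LGG, were compared. The authors deposited 1 table of TPM for 4178 genes, with GRCm38 (mm10) as build per the submitters' processing notes; the aligner, the counting tool and the rule that chose the genes are not given in the sources that were used. Per the labels' protocols, RNA came from a Qiagen column kit and libraries from a NEBNext Ultra II kit. TPM keeps no depth, so no counting error can be given, and the number of mice limits the precision.

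Identifiers were matched to GENCODE M21, which held 4173 of the 4178. limma-trend with robust shrinkage (limma 3.58.1, R 4.3.3) was fitted to log2(TPM + 1) of the 3530 genes with TPM of at least 1 in 5 or more libraries, with 3 groups in 1 model. Tests across all genes were two-sided with Benjamini-Hochberg adjustment and a threshold of 0.05. Differences on this scale understate changes of low genes. Marker sums were compared with the exact permutation test over 252 splits of 5 against 5 mice. The code was tested on simulated data. The members and lists were chosen with earlier results of these data known. Named genes are the members, the listed pathway genes that passed in a contrast or are Tap2, Nlrc5 or Irf1, the listed class II genes, the highest markers of a list, and the 8 genes most like the members. Cd3d, Cd8a and Cd8b1 were named after their values were seen. Promoters came from RefSeq (GRCm38.p6), where 7 of the 8 members matched. Alternatives were other scalings, pseudocount 0.1, no filter, 2 groups only, a replicate block, removal of a length trend, and each library left out.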

Additional observations from a re-analysis of the deposited data

Results flagged for a closer look

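In 129 sets of 5 mice (a gene or marker list in 1 group), 23 had a mouse far from the other 4 by Dixon's criterion, which chance meets in about 1 in 20 sets. RG mouse 2 accounted for 16 of them, always as the highest mouse. Among the members these were H2-Q4 at 86.37 TPM, Tap1 at 51.18 TPM and Erap1 at 22.66 TPM. Among other pathway genes they were H2-Q6 at 70.64 TPM, H2-Q7 at 174.2 TPM, Tap2 at 34.85 TPM, Irf8 at 97.2 TPM, Nfkb1 at 35.47 TPM and Jak1 at 67.59 TPM. Among class II genes they were H2-DMa at 60.34 TPM, H2-Oa at 43.65 TPM, Cd74 at 2301 TPM and Ciita at 17.3 TPM. Among summed marker lists they were T and NK cells at 609.8 TPM, myeloid cells at 228.9 TPM and general leukocytes at 840.0 TPM.

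The other 7 lay in other mice. H2-Q4 was low in PBS mouse 3, at 12.28 TPM, where its group otherwise spanned 16.6 to 17.9 TPM. LGG mouse 4 was high for Irf2 at 64.47 TPM and Nfkb1 at 50.24 TPM, and LGG mouse 2 was low for Jak2 at 48.1 TPM. PBS mouse 1 was high in the B and plasma cell sum at 288.9 TPM and in the stroma, endothelium and muscle sum at 1944 TPM. PBS mouse 2 was high in the sum of blood genes at 8461 TPM.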

How the results depend on the processing

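The median log2 difference of the members kept its sign under every alternative run. The median of all genes did so too, at 0.05 to 0.44 for RG against PBS. The members were chosen by these contrasts, so nothing is read from the sign. For RG against PBS the median of the members was 0.47 under median-of-ratios scaling and 0.57 to 0.99 with 1 library left out. For LGG against PBS it was 0.88 under median-of-ratios scaling, 0.77 under upper-quartile scaling, 0.89 with the length trend removed and 1.58 to 1.78 with 1 library left out. In the contrast of RG with LGG these values were -0.49, -0.32, -0.46 and -1.10 to -0.87. For RG against PBS, 948 genes and 12 pathway genes passed; the counts were 612 and 1 under median-of-ratios scaling, 583 and 2 under upper-quartile scaling, 383 and 2 with only these groups fitted, and 190 and 0 with the length trend removed. Leaving out 1 library gave 40 to 1594 genes and 0 to 19 pathway genes. With 3 libraries left out together (RG mice 2 and 5, PBS mouse 1), limma gave 0 for both counts, with 965 genes and 14 pathway genes at an unadjusted p under 0.05. For RG against LGG, the pathway count of 20 went to 7 under median-of-ratios scaling, 2 under upper-quartile scaling and 5 with the length trend removed. Mouse numbers repeat across groups but did not pair the mice: the correlation of deviations passed 0.1 in 1, 2 and 1 of 5 pairs of RG with PBS, LGG with PBS and RG with LGG, and 0, 1 and 1 of 5 mice matched their own number best. With a replicate block, RG against PBS gave 174 genes and 4 pathway genes. For RG against LGG, Irf1 went to 0.01 under upper-quartile scaling and H2-Q6 to -0.65 without those 3 libraries, a change of sign in both. Tap1 (0.03) and H2-Q4 (0.46) also changed sign under upper-quartile scaling, and H2-Q7 (-0.20) and Ciita without RG mouse 2. Irf8, H2-DMa, H2-Oa and Cd74 changed sign in at least 1 alternative. For LGG against PBS, H2-Q5 (-0.21) and H2-Q7 (-0.10) changed sign under upper-quartile scaling, and Ciita with the length trend removed. The causes were not tested. TPM keeps no depth, so the precision of low genes such as H2-Q5 and Nlrc5 is not known.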
